A study of Cardamine hirsuta with 12 samples.

Results

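The 1647 regions described here were places on the chromosomes of *Cardamine hirsuta* where the tagged transcription factor ChCUC1:V gave a reproducible peak. The untagged plants gave no reproducible peak there, and yet 1 or 2 of the 3 untagged libraries held a peak of their own at a looser limit. The regions were chosen by measured values, namely the peak calls of the untagged libraries themselves. The untagged support described below is thus a description of the choice and carries no test. They made up 10.8% of all 15299 reproducible ChCUC1:V peaks. Of those, 6205 shared no base with any of the 11748 reproducible peaks of untagged plants, 5661 of these lay on the 8 chromosomes, and 4542 lay outside the dense stretch of peaks in the middle of each chromosome (from 16 to 19 Mb on chromosome 1, for example). Among the 4542, the 1647 regions (36.3%) met a relaxed peak in exactly 1 (613 regions) or exactly 2 (1034 regions) of the untagged lists. Another 745 met none and 2150 met all 3, and these serve as the classes on either side. A further 276 regions that satisfied the same conditions inside the dense stretches were left out by the rule.

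Chromatin immunoprecipitation with sequencing (ChIP-seq) was carried out on shoots of seedlings 14 days after germination, grown in short days on soil, with about 20 g of tissue per replicate, cross-linked at 4 °C during 20 min with formaldehyde at 1%. The series holds 12 libraries in 4 groups of 3, that is immunoprecipitated (IP) and input DNA from plants carrying ChCUC1:V, a fusion of *C. hirsuta* CUP-SHAPED COTYLEDON1 to the GFP derivative Venus, and from untagged plants of the Oxford (Ox) strain. The titles give the groups, because the genotype field names Oxford for every library, and both genotypes received the same anti-GFP antibody. ChCUC1:V stands in the study for a genomic ChCUC1 fusion driven by the gene's own upstream sequence, and peaks of the 6 input libraries were not analysed here. ChCUC1:V 1, 2 and 3 gave 48631, 25083 and 21353 relaxed peaks, with median widths of 369, 843 and 1060 bp. Ox 1, 2 and 3 gave 30996, 38180 and 41490, with median widths of 708, 338 and 454 bp. Read numbers are not in the lists, so the depth behind each value is unknown, and a missing call says no more than that the library gave none at the depth it had.

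CUC proteins are NAC-domain transcription factors that mark the boundaries between organs, and in *C. hirsuta* they act at the leaf margin where leaflets arise. The hormone auxin gathers at sites along that margin where outgrowth begins, and protein kinases of the AGC family take part in directing its transport between cells. An antibody can also recover DNA that the tagged protein never touched, from open or highly transcribed chromatin, and untagged plants are immunoprecipitated alongside to show which sites come down in this way. A reproducible peak is one kept in a list filtered by the irreproducible discovery rate (IDR), which scores the agreement of peak ranks. Such a peak need not be called in every tagged library, as 105 of the 1647 regions had a call in 1 of them and 1 region in none. A relaxed peak is any call of one library at p of 0.01, so the relaxed lists are long and hold many weak calls.

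Libraries Ox 1 and Ox 3 together accounted for the most common pattern of untagged support. Peaks in both of these and not in Ox 2 were found at 645 regions (39.2%), against 233 for Ox 2 with Ox 3 and 156 for Ox 1 with Ox 2. Among the regions met by a single untagged library, 267 were met by Ox 3, 179 by Ox 2 and 167 by Ox 1. In all, Ox 1 held a peak at 58.8% of the regions, Ox 2 at 34.5% and Ox 3 at 69.5%. The regions are therefore not 1 uniform set, since a given region may be known from any of the 6 combinations. Ox 1 has the shortest of the untagged lists, and Ox 2, with fewer calls here, has a longer one. The peaks of Ox 1, 2 and 3 covered 31.2, 16.9 and 26.6 Mb in all. What set the shares was not tested. Ox 2 has the narrowest peaks, and its peaks at a region covered a median of 37.5% of the region's length, against 69.5% for Ox 1 and 52.7% for Ox 3.

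**Figure D1:**
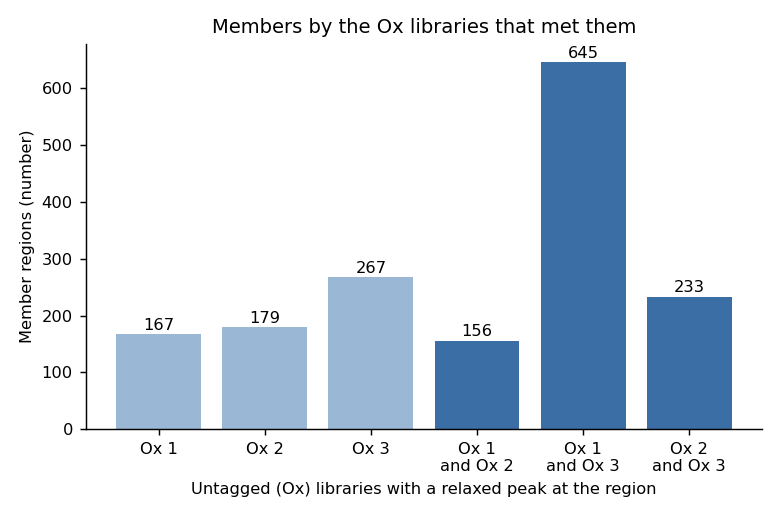
Number of the 1647 regions (vertical axis) for each combination of untagged Ox libraries that held a relaxed peak there (horizontal axis); light bars are regions met by 1 Ox library and dark bars regions met by 2. The bar for Ox 1 with Ox 3 stands at 645 and the other 5 lie between 156 and 267.

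The untagged peaks were for the most part modest within their own lists. Their median fold over pooled control at the summit was 1.90 in Ox 1, 2.39 in Ox 2 and 2.07 in Ox 3, and the median −log10 p was 5.40, 4.16 and 4.82. Ranked by −log10 p within each library, with 100 as the strongest, the median peak stood at 35.9, 39.9 and 41.3 in Ox 1 to Ox 3, and at 65.6, 50.5 and 50.2 in ChCUC1:V 1 to 3. The tagged median thus stood above the middle of its list in ChCUC1:V 1 and about at the middle in ChCUC1:V 2 and 3. The untagged median stood below the middle in each Ox library. The rule itself favours this order, because it asks for a reproducible tagged peak and drops regions with a reproducible Ox peak. At 855 regions (51.9%) no Ox peak reached the upper part of its list above the median rank, and at 48 regions (2.91%) an Ox peak stood at percentile 90 or above, against 216 regions (13.1%) for a tagged peak. Up to 3 tagged peaks but at most 2 Ox peaks could count at a region, and 175 tagged peaks at that percentile were of ChCUC1:V 1. Region by region the order was mixed. The best Ox rank lay below every tagged rank at 634 regions (38.5%) and above every tagged rank at 379 (23.0%). A percentile depends on the length of its list, which ran from 21353 to 48631 peaks, so percentiles of different libraries are not on the same footing. The median −log10 p at the regions was 6.69, 7.66 and 8.12 in ChCUC1:V 1 to 3, the opposite order to their percentiles.

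The borders of the choice can be seen in single regions. Most regions met the untagged peak broadly, with a median of 431 bp shared and at least 200 bp shared at 1587 of them. At 3 regions fewer than 50 bp were shared with any Ox peak. These were on chromosome 3 (23341261 to 23342249, 28 bp shared with Ox 1), chromosome 4 (19981640 to 19982391, 29 bp shared with Ox 2) and chromosome 7 (19605979 to 19607204, 33 bp shared with Ox 1). Each of the 3 had a peak in all 3 tagged libraries, and its Ox summit lay 635 to 2081 bp from the tagged summit. Just outside the limit, 3 of the 745 regions met by no Ox list had an Ox peak within 100 bp, the nearest at 1 bp. On the side of the reproducible lists, 280 regions had a scaled IDR score under 600, close to the lower limit of 540 that stands for an IDR of 0.05, and 711 reached 830, which stands for 0.01.

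In the tagged list the regions were narrow and of low to moderate enrichment. The width ran from 365 to 4597 bp with a median of 730 bp (95% interval of the median 713 to 755), and 43 regions (2.61%) were wider than 2000 bp. Median width was 672 bp for regions met by 1 Ox list and 782 bp for those met by 2. The class met by no Ox list had 651 bp, the class met by all 3 had 1285 bp, and all reproducible tagged peaks together had 1397 bp. Width therefore increased with the number of Ox lists, and a wider region has more bases at which an untagged peak can meet it. The fold was 1.98 at the median (quartiles 1.87 and 2.13, range 1.38 to 3.21), compared with 1.94 in the class met by none, 2.03 in the class met by all 3 and 2.14 over all tagged peaks. The highest possible IDR score of 1000 was held by 453 regions (27.5%), by 22.4% of the class met by none, by 35.8% of the class met by all 3, and by 53.7% of all tagged peaks. The summit lay in the central portion of the region, between 25 and 75% of its length, in 89.3%, which is close to the 91.1% of the class met by none and above the 73.8% of the class met by all 3.

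The tagged libraries were not used singly by the rule, although the reproducible list was made from them. A relaxed peak was present in all 3 of them at 1178 regions (71.5%, Wilson 95% interval 69.3 to 73.7, counting error only), in 2 at 363, in 1 at 105 and in none at 1. Over all 4542 tagged-only regions outside the stretches this share was 78.9%, and over all reproducible tagged peaks it was 89.2%, so the regions described here lay below both. The share was 65.1% for regions met by 1 Ox list and 75.3% for those met by 2, and it was 59.6% in the class met by none and 91.2% in the class met by all 3. Where a tagged library lacked a call it was seldom replicate 1. Calls in ChCUC1:V 1 and 2 without 3 occurred at 216 regions, in 1 and 3 without 2 at 135, and in 1 alone at 95, whereas 12 regions had calls in 2 and 3 without 1, 8 in 3 alone and 2 in 2 alone. ChCUC1:V 1 also has the longest and narrowest list.

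Width went together with this support. In the narrowest 415 regions (365 to 583 bp) all 3 tagged libraries held a peak at 31.3%. The share was 72.1% in the 409 regions of 584 to 730 bp, 90.3% in the 413 of 732 to 1026 bp, and 92.7% in the 410 of 1027 bp or more. The shortest relaxed peak of ChCUC1:V 3 was 525 bp long, of ChCUC1:V 2 410 bp and of ChCUC1:V 1 160 bp. The same bands in the class met by all 3 Ox lists gave 37.5, 76.7, 91.5 and 98.6%, and in the class met by none 23.6, 65.8, 87.9 and 95.4%. The classes were thus closer to each other within a band of width than over all widths. The share of regions met by 2 Ox lists was 48.2% in the narrowest band and 72.9% in the widest.

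The question of whether regions with partial untagged support were enriched like their neighbours in the single tagged libraries was addressed library by library. A relaxed peak was present at 98.6% of the regions in ChCUC1:V 1, 85.5% in ChCUC1:V 2 and 80.9% in ChCUC1:V 3. In the class met by all 3 Ox lists the shares were 99.9, 96.9 and 93.4%, and the difference was −1.26, −11.4 and −12.5 percentage points (mean −8.37, SD 6.18, n = 3 libraries, lower in 3 of 3). In the class met by no Ox list they were 97.9, 74.6 and 72.9%, and the difference was 0.751, 10.9 and 8.05 points (mean 6.55, SD 5.22, n = 3, higher in 3 of 3). The regions thus stood between both classes in each tagged library, by a margin that was small in ChCUC1:V 1. An exact sign-flip permutation test over the 3 libraries, two-sided, gave p = 0.25 for both differences, which is the smallest p that 3 libraries allow, so neither can pass 0.05. The difference from the class met by all 3 was −1.52 points, lower in 2 of 3 libraries, when an Ox peak had to cover 50% of the region, and −1.76 points when an Ox summit had to lie within 250 bp. The difference from the class met by none was 3.33 points, higher in 2 of 3 libraries, at an IDR score of at least 830, and 2.74 points without Ox 2.

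Over all widths, fold in the tagged libraries showed the same order with small steps. The median fold at the regions was 2.43 in ChCUC1:V 1, 1.97 in ChCUC1:V 2 and 1.86 in ChCUC1:V 3. In the class met by all 3 Ox lists it was 2.52, 2.05 and 1.92, a difference of −0.089, −0.0804 and −0.0697 (mean −0.0797, SD 0.0096, n = 3, exact p = 0.25). In the class met by none it was 2.38, 1.91 and 1.84, a difference of 0.0576, 0.0629 and 0.0113 (mean 0.0439, SD 0.0284, n = 3, exact p = 0.25). Each difference had the same sign in 3 of 3 libraries and was far smaller than the spread of folds between regions of a class. With the Ox summit rule the difference from the class met by all 3 was −0.0298, with reproducible lists compared by summits −0.174, and with an IDR score of at least 830 it was −0.121. The difference from the class met by none was 0.0249 without Ox 2, 0.0699 at that IDR score and 0.0759 with the Ox summit rule. When the comparison was limited to regions of 500 to 1000 bp (1048 regions, 687 of the class met by all 3 and 505 of the class met by none; a limit chosen after seeing the data), the mean differences in fold were −0.0421 and 0.0522 and those in support were −3.56 and 3.73 points. Within the bands of width used above, the order of fold held in ChCUC1:V 1 and 2 but not in ChCUC1:V 3. There the regions lay below the class met by none in the narrowest band (1.79 against 1.82) and the widest (1.88 against 1.90). In the band of 584 to 730 bp they lay above the class met by all 3 (1.85 against 1.83). With 3 libraries the exact sign-flip p is 0.25 whenever all differences share a sign, so it reflects that agreement and not their spread. It concerns these libraries only, as the labels do not state that replicates came from separately grown plants. The list names give ChCUC1:V 1 and 2 the same run number as Ox 2 and 3, whereas ChCUC1:V 3 and Ox 1 each have a run number of their own. What a run stands for is not stated.

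**Figure D2:**
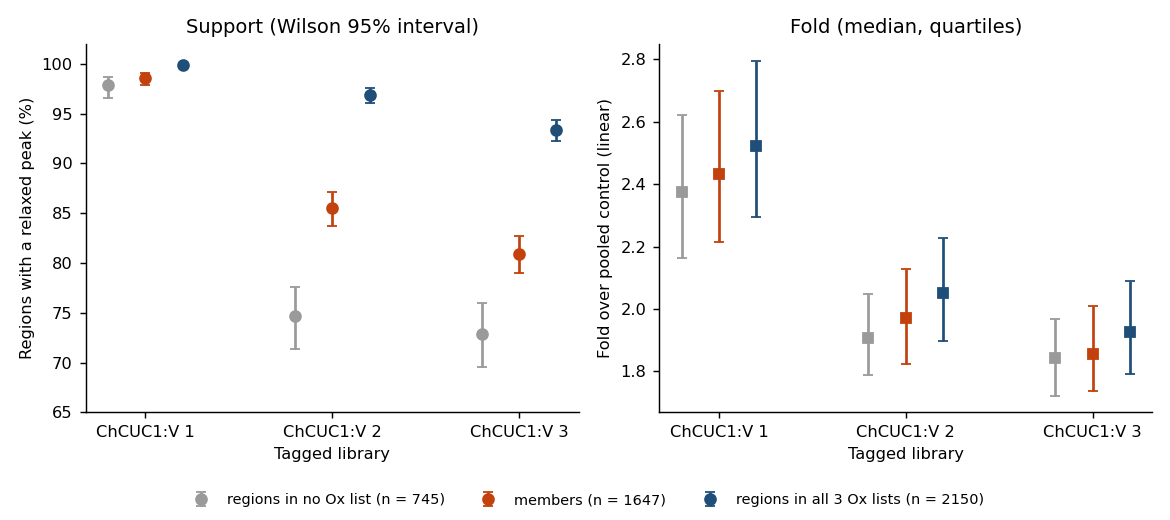
Left, percent of regions with a relaxed peak in each tagged library, with Wilson 95% intervals (axis from 65%); right, fold over pooled control of those peaks, as median with quartiles on a linear axis; grey, regions met by no Ox list, orange-red, the 1647 regions met by 1 or 2, blue, regions met by all 3. In each library the 1647 regions lie between the other classes, with 98.6, 85.5 and 80.9% support and a median fold of 2.43, 1.97 and 1.86.

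Among the 1178 regions with a peak in every tagged library, the fold was highest in ChCUC1:V 1 at 1042 and lowest in ChCUC1:V 3 at 753. The median range over the 3 libraries was 0.643, and 199 regions had a fold of at least 2 in each. Folds of different libraries carry the scale of each list, since the median fold over the whole relaxed list was 2.27, 1.97 and 1.87 in ChCUC1:V 1 to 3 and 2.05, 2.55 and 2.17 in Ox 1 to 3. A fold of Ox 2 is thus not on the same footing as one of ChCUC1:V 3, and no test was made between them.

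The untagged summits lay close to the tagged ones. The median distance from the summit of the reproducible peak was 71, 46 and 82 bp in ChCUC1:V 1 to 3, and 87, 98.5 and 100 bp in Ox 1 to 3. Within 250 bp lay 89.6, 91.3 and 86.6% of the tagged summits and 81.0, 82.0 and 81.1% of the Ox summits. For about 4 in 5 untagged peaks the maximum thus lay within 250 bp of the tagged maximum. The rule required an overlapping Ox peak, and a median region width of 730 bp leaves limited room for a summit farther off. Whether the summits lay closer than this overlap alone would give was not tested. In the wider regions met by all 3 Ox lists the Ox medians were 146, 189.5 and 161 bp. The tagged summits have the advantage that the reproducible list was built from them, so tagged and Ox distances are set side by side with no test.

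**Figure D3:**
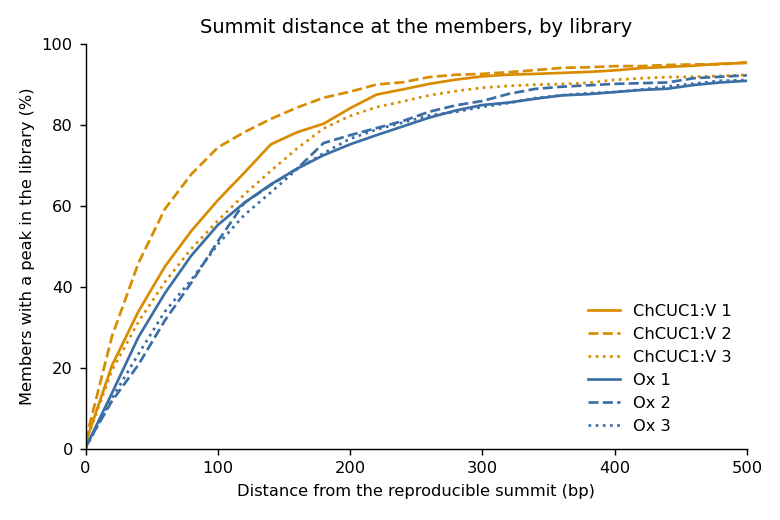
Cumulative percent of regions with a peak in the library (vertical axis) whose summit lay within the given distance in bp of the reproducible ChCUC1:V summit (horizontal axis), for the 3 tagged libraries (orange) and the 3 Ox libraries (blue). At 250 bp the tagged curves stand between 86.6 and 91.3% and the Ox curves between 81.0 and 82.0%.

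The regions were spread over all chromosomes at a similar density. There were 166 on chromosome 5 and 236 on chromosome 4, and the density outside the stretches ran from 9.28 per Mb on chromosome 1 to 11.3 on chromosome 4. Their share of the tagged-only regions lay between 31.6% (chromosome 5) and 40.1% (chromosome 6). Along the chromosome they held a middle position. The median distance from the dense stretch was 4.13 Mb, with 5.72 Mb for regions met by 1 Ox list and 3.54 Mb for those met by 2, whereas it was 7.20 Mb in the class met by none and 2.67 Mb in the class met by all 3. Within 2 Mb of a stretch lay 24.5% of the regions, 7.65% of the class met by none and 38.6% of the class met by all 3. More Ox support thus went together with a position nearer to the stretches.

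The nearest reproducible Ox peak was a median of 11342 bp away, and at 220 regions (13.4%) it was within 1 kb, the closest at 53 bp. That distance was 57982 bp in the class met by none and 2977 bp in the class met by all 3. The nearest other tagged peak was 3709 bp away and the nearest region of the same kind 27990 bp away, with 84 regions having another within 1 kb. In the class met by none these 2 medians were 12273 and 53425 bp, and in the class met by all 3 they were 1441 and 12319 bp. In each class the nearest other tagged peak was thus closer than the nearest region of the same kind, so this was not particular to the 1647 regions. Distances within a class also depend on its size, here 1647, 745 and 2150 regions.

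Gene positions were available for the stronger regions. The study's annotation of ChIP-seq peaks, of which the part held here covers the 1997 tagged-only peaks with the highest −log10 p (22.2 or above), placed 477 of the 1647 regions and named 465 nearest genes by their *C. hirsuta* identifiers. Of these regions, 193 (40.5%) were in exons, 154 (32.3%) were intergenic, 49 (10.3%) were in promoters, 34 (7.13%) were at transcription start sites (promoter-TSS), 31 were at transcription ends (TTS) and 16 (3.35%) were in introns. Regions met by 1 Ox list differed here from those met by 2. Of 184 annotated regions with 1 Ox list, 56.5% were exonic (Wilson 95% interval 49.3 to 63.5) and 16.3% intergenic (11.7 to 22.3). Of 293 with 2 Ox lists, 30.4% were exonic (25.4 to 35.9) and 42.3% intergenic (36.8 to 48.0).

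The classes on either side continued this order. In the class met by no Ox list 74.5% of 196 annotated regions were exonic and 3.57% intergenic, and in the class met by all 3 the shares were 13.4% and 70.1% of 779. Exons thus held a smaller share, and intergenic positions a larger one, with each further Ox list. Among annotated regions of 500 to 1000 bp the exonic shares were 71.2, 56.0, 31.2 and 22.0% for 0, 1, 2 and 3 Ox lists. The order was thus also seen in this range, a limit chosen after seeing the data, within which the classes were not matched for width. Distance from the dense stretches also fell with the number of Ox lists, and its part in the exonic shares was not tested. Promoters, counted without the start sites, took 4.08, 7.07, 12.3 and 10.1% and did not follow a single order. Regions are not replicates and no test was made across them. The exonic regions with partial support had a median width of 752 bp and the intergenic ones 720 bp, with median folds of 2.21 and 2.23, but the nearest reproducible Ox peak was a median of 58865 bp from the former and 4227.5 bp from the latter. A peak in all 3 tagged libraries was present at 88.6% of the exonic and 81.8% of the intergenic regions.

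**Figure D4:**
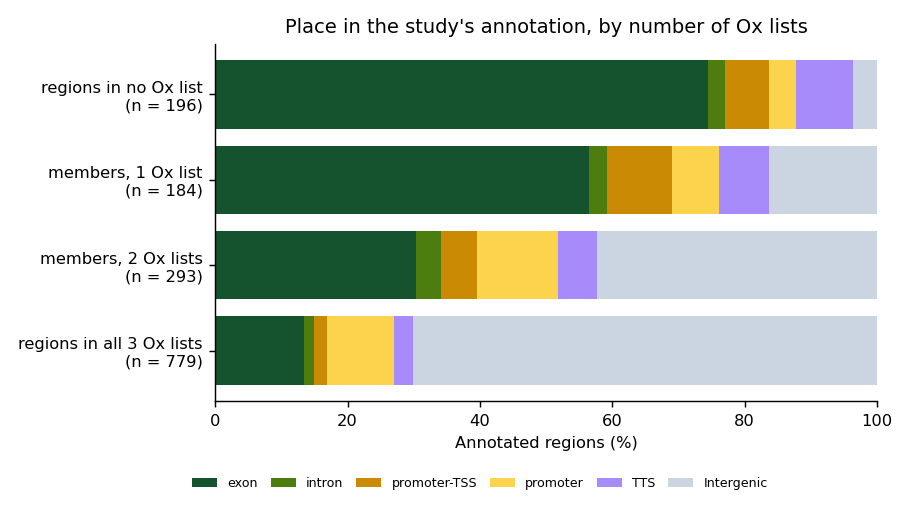
Percent of annotated regions (horizontal axis) in each place of the study's annotation, for regions met by 0, 1, 2 and 3 Ox lists from top to bottom, with the number of annotated regions beside each bar; only the strongest tagged-only peaks are annotated here. The exonic part goes from 74.5% through 56.5% and 30.4% to 13.4%, and the intergenic part from 3.57% through 16.3% and 42.3% to 70.1%.

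Of the 1452 annotated tagged-only regions outside the stretches, 477 had partial untagged support. Of 23 auxin and boundary genes looked up by their *Arabidopsis thaliana* identifiers, 5 were nearest to an annotated tagged-only region outside the stretches and 2 to a region with partial untagged support. WAG2 (CARHR089410), an AGC kinase of auxin transport in *A. thaliana* and 1 of these genes, had an exonic region on chromosome 3 (4844893 to 4846203, 1311 bp, list fold 2.05, −log10 p 22.5). Its fold was 2.52, 2.05 and 1.93 in ChCUC1:V 1 to 3, 2.22 in Ox 2 and 2.09 in Ox 3, with no call in Ox 1. At WAG2 the tagged and untagged folds overlapped. The percentiles within each list were 75.9, 64.5 and 63.7 for the tagged libraries and 26.9 and 51.2 for Ox 2 and Ox 3, so by rank the tagged calls stood higher. The Ox 2 summit was 101 bp and the Ox 3 summit 529 bp from the tagged summit. The nearest reproducible Ox peak was 778094 bp away.

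Of the study's 28 high-confidence target genes, 7 were nearest to an annotated tagged-only region outside the stretches, and 3 of these genes to a region with partial untagged support. Beside the 477 of 1452 annotated regions, counts this small do not set the target or auxin genes apart. Only the strongest peaks are annotated here, so other target genes may have regions that were not placed. The list was drawn up by the study partly from these samples and is not independent evidence. Besides WAG2 it named UGT72E2 and CYP83A1. UGT72E2 (CARHR281030), a glucosyltransferase of monolignols, the building blocks of lignin, had an exonic region on chromosome 8 (20395908 to 20396677) with fold 2.71, the 17th highest of the 1647. There the fold was 3.44, 2.55 and 2.47 in the tagged libraries and 1.75 in Ox 3 alone, at percentile 17.6 of that list. CYP83A1 (CARHR219650), a cytochrome P450 of glucosinolate synthesis in *A. thaliana*, had an exonic region on chromosome 7 (11182867 to 11183650) with folds of 2.47, 1.93 and 1.91 in the tagged libraries and 1.84 in Ox 1. The untagged fold was below each tagged fold at both genes, by a wide margin at UGT72E2 and a narrow one at CYP83A1. By rank the Ox 1 peak at CYP83A1, at percentile 30.5, stood below the tagged peaks at 66.2, 44.8 and 55.2.

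The strongest regions by list fold were mostly next to genes without a name in the study's tables. The highest was an exonic region on chromosome 1 (1525223 to 1526504, CARHR004590) with fold 3.21 and −log10 p 71.9. Its fold was 3.80, 2.95 and 3.15 in ChCUC1:V 1 to 3 and 1.52 in Ox 1, whose peak stood at percentile 2.27 of its list. It thus had strong tagged peaks beside a very weak untagged one. The fifth, on chromosome 3 (5895404 to 5896217, in an exon of CARHR092360), had folds of 3.25, 2.68 and 2.58 beside 2.22 in Ox 3 at percentile 74.9, a stronger untagged call. The 10 regions of highest fold, from 3.21 down to 2.76, all had a peak in each tagged library. They comprised 6 exonic regions, 2 at transcription ends (CARHR136360 and CARHR225750), 1 at a start site (CARHR038340) and 1 intergenic region.

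That intergenic region on chromosome 3 (20005530 to 20006426, fold 2.81) was nearest to CARHR106780, whose *A. thaliana* counterpart AT2G16580 is a SAUR-like protein of the auxin-responsive SMALL AUXIN UP RNA family. Its folds were 3.15, 2.68 and 2.26 in the tagged libraries, and 2.43 and 2.18 in Ox 1 and Ox 3. A reproducible Ox peak lay 652 bp away, so this region was close to one that the untagged plants yielded reproducibly. It was the sole region whose gene description mentions auxin among the 70 annotated regions whose gene has a name or description.

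The named genes belonged to several functional groups, each with few regions. Names and descriptions came only from the study's lists of genes differentially expressed on ChCUC1 induction and of overlaps between its gene sets. The described genes are therefore not a sample of all genes near the regions. By words in the descriptions, 6 regions were next to genes of the cell wall or lignin, 6 next to transporters, 4 next to kinases, 3 next to glycosyltransferases and 2 next to transcription factors. Counts this small among 70 described regions are a description of where the peaks lay.

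Cell wall genes other than UGT72E2 included ATAGP30 (CARHR127890), an arabinogalactan protein, with an exonic region on chromosome 4 (16478528 to 16479039). Its folds were 3.22, 2.24 and 1.92 in ChCUC1:V 1 to 3 and 2.18 in Ox 2. By rank the Ox 2 peak there, at percentile 24.6, stood below the tagged peaks at 95.7, 74.8 and 53.8. FLA12 (CARHR274160), a fasciclin-like arabinogalactan protein found in secondary cell walls of *A. thaliana*, had 2.35, 2.22 and 2.02 beside 1.71 in Ox 3. A pectinesterase gene (CARHR023650, AT1G23200), whose enzyme removes methyl groups from pectin, carried 2 regions on chromosome 1. The first (8395033 to 8395877) had 2.40, 1.82 and 1.996 in the tagged libraries, 2.51 in Ox 2 and 1.95 in Ox 3, and the second (8396555 to 8397248) had 2.76, 2.14 and 1.93 beside 1.66 in Ox 1. Neighbouring regions of one gene thus differed in which Ox libraries met them. An extensin-like gene (CARHR025670, AT1G26240) had 2.94, 2.06 and 1.83 in the tagged libraries, and 3.18 in Ox 2 with a summit 666 bp from the tagged one.

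Transporter genes showed a comparable mix. A vacuolar iron transporter-like gene (CARHR021590, AT1G21140) had an exonic region on chromosome 1 (7545855 to 7546537) with folds of 3.01, 2.50 and 2.29, and with 1.95 in Ox 1 and 2.70 in Ox 2. A MATE efflux gene (CARHR264990, AT5G52050) on chromosome 8 (13842673 to 13844032) had 3.41, 2.37 and 2.11 beside 2.49 in Ox 2. By rank within its own list the Ox 2 peak stood below every tagged peak at both genes, at percentile 75.8 against 88.0 to 91.5 at the former and 46.3 against 75.1 to 97.3 at the latter. ATNRT2.5 (CARHR013290), a high-affinity nitrate transporter in *A. thaliana*, had 2.81, 1.81 and 1.83 beside 1.57 in Ox 1 at percentile 4.46. The molybdate transporter MOT1 (CARHR115570) and the metal-nicotianamine transporter YSL7 (CARHR057590) were nearest to intergenic regions, each with peaks in Ox 1 and Ox 3. The sixth was an ABC transporter gene (CARHR265800, AT5G52860), with 2.60, 2.23 and 1.97 in the tagged libraries and 2.84 in Ox 2.

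Transcription factor genes were RHD6 (CARHR058510), a bHLH regulator of root hair formation in *A. thaliana*, and a DOF zinc finger gene (CARHR046300, AT1G64620). The region nearest to RHD6 on chromosome 2 (12543573 to 12546535) was intergenic and 2963 bp wide. Its folds were 2.93, 1.94 and 2.02 in the tagged libraries, 2.15 in Ox 1 and 2.34 in Ox 3, and the Ox 3 peak covered 2785 bp of it with a summit 1531 bp away. The summit of ChCUC1:V 2 was likewise 1671 bp from that of the reproducible peak, so the libraries did not share 1 maximum there. The DOF gene had an exonic region with 2.63, 1.75 and 1.75 beside 1.72 in Ox 3.

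Kinase genes other than WAG2 included FRK1 (CARHR109670), a receptor-like kinase induced by bacterial flagellin in *A. thaliana*, and HXK3 (CARHR037440), a hexokinase. Each of these regions lacked a call in 1 tagged library. FRK1 was nearest to an intergenic region with 2.47 and 2.08 in ChCUC1:V 1 and 2, 1.85 in Ox 1 and 2.27 in Ox 3, and HXK3 to a promoter region with 2.59 and 2.05 in ChCUC1:V 1 and 3, 2.19 in Ox 2 and 2.67 in Ox 3. The Ox 3 peak at HXK3 stood at percentile 89.4 of its list, above both tagged peaks, at 82.2 and 79.4. Its −log10 p of 8.91 lay between those of ChCUC1:V 1 (8.68) and ChCUC1:V 3 (13.0). Glycosyltransferase genes other than UGT72E2 were CARHR005520 (AT1G06000), with 2.77, 2.45 and 2.38 beside 1.70 in Ox 1, and CARHR107160 (AT2G16890), with 2.65, 1.72 and 2.01 beside 2.52 in Ox 2.

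Further exonic regions of high fold were at CARHR220650 (ATECI3), CARHR236750 (AT4G29020, a glycine-rich protein), CARHR077730 (AT3G03670, a peroxidase), CARHR198620 (AT5G14690, uncharacterized) and CARHR013300 (RSH2, a root hair specific gene). The peroxidase gene, from a family of secreted enzymes of the cell wall, had 3.15, 2.56 and 2.41 in the tagged libraries, 2.41 in Ox 1 with a summit 1 bp away, and 2.07 in Ox 3. ATECI3 had 2.70, 2.79 and 2.20 beside 2.27 in Ox 1, at percentile 86.0 of that list. The glycine-rich protein gene had 3.38, 2.01 and 2.21 beside 1.87 in Ox 3. Of these, the Ox 1 value at ATECI3 lay above the tagged value of ChCUC1:V 3, and the Ox 3 value at the glycine-rich protein gene lay below all 3.

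**Figure D5:**
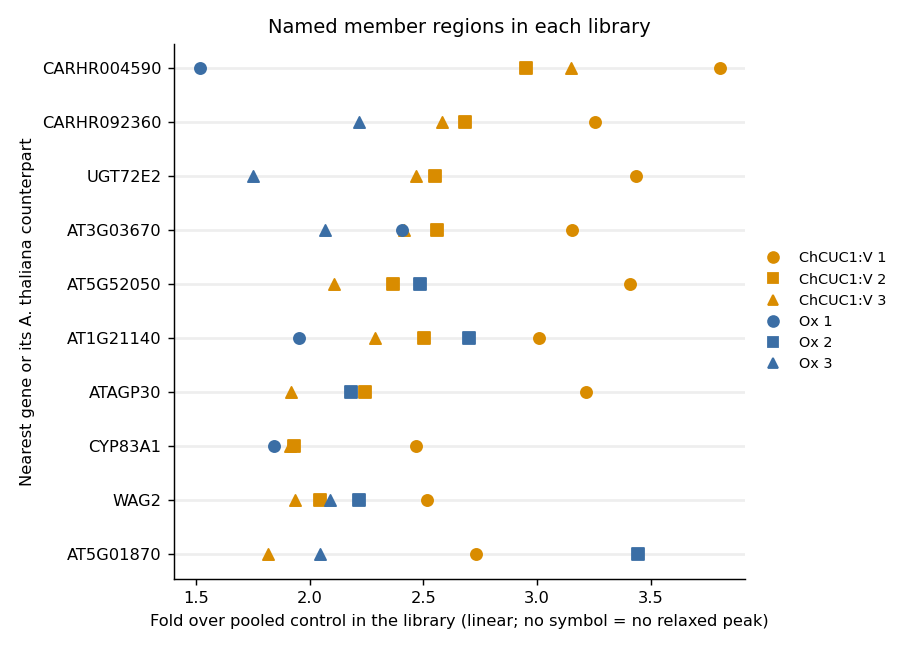
Fold over pooled control (horizontal axis, linear) in each tagged library (orange) and each Ox library (blue) at 10 named regions (vertical axis), with circles, squares and triangles for replicates 1, 2 and 3 and no symbol where the library had no call. The Ox values lie below all tagged ones at UGT72E2 (1.75 against 2.47 to 3.44) and among or above them at WAG2 and AT5G01870. Folds carry the scale of each list.

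The highest untagged folds all came from Ox 2. They were 3.60 on chromosome 5 (4821003 to 4821473), 3.46 at both of a pair of regions on chromosome 8 (13057339 to 13058219 and 13758681 to 13759214), 3.45 on chromosome 6 (24256706 to 24257197) and 3.44 on chromosome 1 (9850381 to 9851617). These peaks stood at percentiles 96.1, 93.7, 93.4, 96.7 and 97.8 of the Ox 2 list. In the region on chromosome 6, at the start site of a lipid-transfer protein gene (CARHR212220, AT5G01870), the tagged folds were 2.73 in ChCUC1:V 1 and 1.82 in ChCUC1:V 3, with no call in ChCUC1:V 2, and Ox 3 gave 2.04. The first, on chromosome 5, had 2.63 and 2.14 in ChCUC1:V 1 and 2 and no call in ChCUC1:V 3. At the former of the pair on chromosome 8, ChCUC1:V 1 had 3.87, above the Ox 2 value, and the Ox 2 summit was 569 bp from the tagged one. At the other 4 of these 5 regions the Ox 2 peak exceeded each tagged peak in fold and also in its rank within its own list. In −log10 p the Ox 2 peak did not exceed every tagged peak at any of these 4.

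The lowest regions by list fold had little agreement between tagged libraries. On chromosome 3 (17389004 to 17389421, fold 1.39) a peak was called in ChCUC1:V 1 alone (2.38), beside 2.45 in Ox 1 and 2.74 in Ox 2, and a reproducible Ox peak lay 209 bp away. On the same chromosome (13112538 to 13112934, fold 1.39) ChCUC1:V 1 had 2.03 and Ox 2 had 2.26. On chromosome 4 (17949523 to 17950162, fold 1.38) ChCUC1:V 1 and 2 had 1.56 and 1.40 and Ox 2 had 1.87. By −log10 p a tagged peak stood highest at the second of these (3.89 against 3.59) and at the third (8.12 against 6.88). In each of these 3 the highest fold, and also the highest rank, was that of an untagged library. The narrowest region, on chromosome 6 (8260542 to 8260906, 365 bp), likewise had 1.86 in ChCUC1:V 1 alone and 2.24 in Ox 1. The widest, on chromosome 8 (13441235 to 13445831, 4597 bp), had 2.82, 1.87 and 1.78 in the tagged libraries, 2.27 in Ox 1 and 2.35 in Ox 3, with the Ox summits 2920 and 684 bp from the tagged one.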

How the data were processed

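Peak lists of 6 IP libraries and 2 reproducible lists were used. Per the submitters' notes, Bowtie, MACS2 and bedtools were used to make them; versions and the genome build are not given in the sources used here, and coordinates are those of the lists, counted from 1. List names state that duplicates were removed and that each library was called against pooled controls. The fold deposited by the authors is a linear ratio at the summit, IP divided by pooled control. The −log10 p and −log10 q are the authors' deposited MACS2 values. The score deposited by the authors is a scaled IDR in the reproducible lists and follows −log10 p in the relaxed ones. The reproducible lists are named case and control only; case was taken as ChCUC1:V, because the study's annotated ChIP peaks have the coordinates of case peaks outside the control list.

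Overlap meant at least 1 shared bp. Where several peaks of a library met a region, the one of highest fold was used. Each dense stretch was 1 interval per chromosome, decided by midpoints. Computations used Python 3.11.15, numpy 2.4.6, pandas 2.3.3 and scipy 1.17.1; the overlap code was checked on simulated intervals against bedtools 2.31.1. Differences between classes were tested by exact sign flips over the 3 tagged libraries. Alternatives concerned the IDR limit, the overlap rule, list length (21353 peaks each), the stretches, the libraries left out and the run number in the list names.

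Named regions were the 10 of highest fold, the 5 highest with 1 and with 2 Ox lists, those at listed target, auxin or boundary genes, the 5 with the highest Ox fold, the 3 lowest, the 3 sharing fewest bases, the 10 highest at genes with a name or description, and the widest and narrowest; regions found by words in gene descriptions were added. Gene names and places come from the study's tables, whose values were not used; 1 region chosen by this rule is not reported here. The members and lists were chosen with earlier results of these data known.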

Additional observations from a re-analysis of the deposited data

How the results depend on the processing

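Over 105 recomputed values 83 stayed within their limits, 22 moved and none changed sign. Counts, widths, distances, folds and shares cannot change sign, so only the differences between classes could have done so. The setting limited to the run number shared by both genotypes repeated the values obtained without ChCUC1:V 3. The limits were wide, as 2378 regions with lists of equal length and −1.52 points of support with 50% cover counted as within them. The number of regions was 797 with an IDR score of at least 830 in both lists, 2647 when an Ox peak had to cover 50% of the region, 2657 when an Ox summit had to lie within 250 bp, 2378 with lists of equal length, and 823 to 1247 with 1 Ox library left out (823 without Ox 2, 1224 without Ox 3, 1247 without Ox 1). Median width became 983 bp with 50% cover, 973 bp with the summit rule, 956 bp with lists of equal length, 672 bp for regions of 500 to 1000 bp by construction, and 678 to 761 bp with 1 Ox library left out. The mean of the Ox median summit distances, 95.2 bp in the report's setting, was 83.7 bp with the stricter IDR, 145.5 bp with 50% cover, 161.7 bp with the summit rule, 117.8 bp with lists of equal length, and 86.25 to 102.25 bp with 1 Ox library left out. The mean of the Ox median folds was 2.12, and 2.38 with lists of equal length. The share of regions with a peak in all 3 tagged libraries was 54.3% with lists of equal length and 82.9% with the stricter IDR. The mean differences in fold and support between the regions and the other classes kept their sign under every alternative run, but not in each library: support was lower than in the class met by none in 1 of 3 libraries with the stricter IDR, and lower than in the class met by all 3 in 2 of 3 with 50% cover (exact p = 0.5 for both). Over the alternatives the mean difference from the class met by all 3 ran from −0.174 to −0.0298 in fold and from −11.9 to −1.52 points in support, and that from the class met by none from 0.0249 to 0.0759 and from 2.74 to 10.3 points. With 2 tagged libraries the smallest exact p is 0.5. No paired analysis was possible because no test set ChCUC1:V against Ox libraries, so replicate numbers shared by the genotypes could not serve as a block; the class differences were taken within each tagged library. Depth is unknown, a region with no call may lie just under the limit of a library, and the annotated regions are the strongest ones.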
